A study of Mus musculus with 20 samples.

Results

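C/EBPbeta binding in 3T3-L1 cells was compared between 4 hours and 2 hours after adipogenic induction. The members are all peaks in the C/EBPbeta ChIP-seq lists of these times, 29957 at 4 hours and 19703 at 2 hours, or 49660 of the 284878 peaks in the 19 lists of the series. A 4 hours peak that shared at least 1 bp with a 2 hours peak was called kept and any other 4 hours peak gained, and a 2 hours peak that met no 4 hours peak was called lost. 3T3-L1 is a mouse preadipocyte line. Per the labels, cells were grown in calf serum, held for a further period after confluence (day 0), and then switched to fetal bovine serum with insulin, 3-isobutyl-1-methylxanthine and dexamethasone. The 4 hours and 2 hours cells had both received this mixture, and each time is 1 ChIP-seq library from 1 cell line. The lists set beside them are open chromatin from DHS-seq at 4 hours and 2 hours, ChIP-seq of C/EBPdelta, GR, Stat5a and RXR at 4 hours, and C/EBPbeta, PPARgamma, RNA Pol II and DHS lists of the other times. Peak lists hold no expression values, so the cell type was not checked against markers.

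C/EBPbeta is a leucine zipper transcription factor that is made early in adipogenesis and comes before PPARgamma, the nuclear receptor on which fat cell formation depends. C/EBPdelta is a close relative that binds the same kind of DNA site and can pair with it. GR is the receptor of dexamethasone, Stat5a is a signal-activated transcription factor of cytokine and growth hormone receptors, and RXR is the partner of PPARgamma and several other nuclear receptors. A DNase I hypersensitive site (DHS) is a stretch of DNA that the nuclease can reach, the usual mark of an open enhancer or promoter.

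With 1 library at each time, no difference between 4 hours and 2 hours was tested against replicate spread. Intervals in brackets are exact (Clopper-Pearson) 95% intervals for a share of peaks, and they cover counting over the peaks of these libraries only. Read depth is unknown. The lists give positions and no height or score, so peak width in base pairs is the only measure of a single peak.

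Most C/EBPbeta sites of 2 hours were also listed at 4 hours, whereas the 4 hours list held many more besides. Of the 29957 peaks at 4 hours, 12279 were gained (41.0%, 40.4 to 41.5) and 17678 kept. Of the 19703 peaks at 2 hours, 1957 were lost (9.93%, 9.52 to 10.4) and 17746 kept. These 2 shares, 41.0% gained and 9.93% lost, are the background against which the counts below are read. Merged into 31872 regions, 12277 belonged to 4 hours alone, 1957 to 2 hours alone and 17638 to both times.

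Kept sites were matched closely in position. Peaks met one to one in 17504 pairs, and the middles of the paired peaks lay a median of 27 bp apart, at most 100 bp in 94.4% of pairs. Only 5 of these pairs shared less than 50% of the shorter peak. The 4 hours peak was the wider one in 12993 pairs (74.2%), with a median width of 625 bp at 4 hours against 562 bp at 2 hours. The median widening (4 hours minus 2 hours) was 87 bp in the 3229 pairs with a GR peak and 50 bp in the 14275 without. It was also larger with than without RXR (79.5 and 54 bp), Stat5a (74 and 52 bp) and C/EBPdelta (65 and 39 bp). Pairs with any of these factors were already wider at 2 hours, with medians of 665 bp with GR and 546 bp without. Whether widening goes with the width at 2 hours was not tested. By open chromatin the median widening was 75 bp in the 5539 pairs listed as DHS at 4 hours and not at 2 hours, and 69 bp in the 4023 listed at both times. It was 25 bp in the 136 listed at 2 hours and not at 4 hours, and 40 bp in the 7806 listed at neither.

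Gained and lost peaks were narrow. Median widths were 523 bp for gained and 625 bp for kept peaks of 4 hours, and 477 bp for lost and 562 bp for kept peaks of 2 hours. With the 4 hours list ordered by width, the share gained was 74.4% (72.8 to 76.0) among the 2996 narrowest peaks (251 to 444 bp) and 11.6% (10.4 to 12.8) among the 2995 widest (810 to 2036 bp). With the 2 hours list ordered in the same way, the share lost was 24.3% (22.4 to 26.2) among the 1971 narrowest and 0.406% (0.175 to 0.799) among the 1970 widest. Both shares were lower in every step of width than in the one before it. Few gained or lost peaks were near misses of a peak at the other time: 7.43% of the 12278 gained peaks on a chromosome with any 2 hours peak lay within 1000 bp of one (median gap 16542.5 bp), and 8.69% of lost peaks lay within 1000 bp of a 4 hours peak (median gap 15422 bp).

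**Figure D1:**
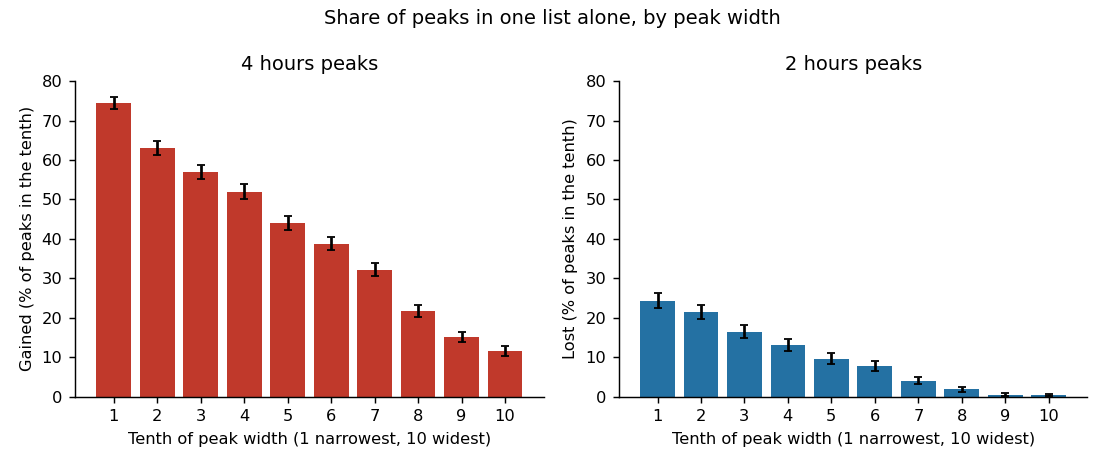
Share of C/EBPbeta peaks in one list alone (vertical axis, %) in 10 steps of peak width from narrowest to widest (horizontal axis), for gained peaks of the 4 hours list on the left and lost peaks of the 2 hours list on the right. Bars carry exact 95% intervals over peaks of 1 library each; the gained share is 74.4% at the narrow end and 11.6% at the wide end, and the lost share 24.3% and 0.406%.

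The next question was whether the sites lay in open chromatin. The DHS 4 hours list held 32.2% of gained peaks (31.4 to 33.0), 15.1% of lost peaks (13.5 to 16.7) and 54.9% of kept peaks (54.1 to 55.6, 4 hours peaks). The DHS 2 hours list held 7.39% of gained (6.93 to 7.86), 4.34% of lost (3.48 to 5.34) and 24.0% of kept peaks (23.3 to 24.6). Kept sites were thus the most often open and lost sites the least often open in both lists. With every peak set to 200 bp, which also changed the classes, the DHS 2 hours list held more of the lost than of the gained peaks (7.32% lost, 6.45% gained). With the classes unchanged and only the middle 200 bp of each C/EBPbeta peak used, it held 4.04% of lost and 7.10% of gained peaks. The DHS 4 hours list (31751 peaks) was far longer than that of 2 hours (9055 peaks), so the higher share at 4 hours and the longer list cannot be told apart. With the DHS 4 hours list cut to its 9055 widest peaks, it held 8.67% of gained, 5.11% of lost and 19.5% of kept peaks.

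Taking both DHS lists together, 67.6% of gained peaks (8304 of 12279) were in neither, 24.99% (3068) in that of 4 hours alone and 7.21% (885) in both. Of lost peaks, 84.6% (1656 of 1957) were in neither, 11.04% (216) in that of 4 hours alone and 4.04% (79) in both. Of kept peaks, 44.4% were in neither, 31.7% in that of 4 hours alone and 23.2% in both. Seen from the chromatin side, the share of 4 hours C/EBPbeta peaks that were gained was 17.7% (16.7 to 18.8) where both DHS lists held the site, 35.4% (34.4 to 36.4) where only that of 4 hours did, 13.8% (8.88 to 20.2) at the 159 sites where only that of 2 hours did and 51.4% (50.7 to 52.2) where neither did, against 41.0% of all. Few 2 hours peaks of any class were in DHS of 2 hours and not of 4 hours. This held for 6 of 1957 lost peaks (0.307%, 0.113 to 0.666) and 145 of all 19703 (0.736%). Of these 145 peaks, 4.14% (1.53 to 8.79) were lost. The share lost was 3.70% where only DHS of 4 hours held the site, 1.89% where both did and 17.4% where neither did.

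Among sites open at 4 hours and not at 2 hours, gained ones were less often in the later DHS lists than kept ones. Of the 3068 such gained peaks, 58.5% were in the DHS list of day 1, 33.9% in that of day 2 and 8.57% in that of day 6. Of the 5599 such kept peaks, the shares were 72.9%, 50.5% and 13.2%. Over all gained peaks the shares were 29.5%, 20.9% and 5.58%, and over all kept peaks 55.1%, 42.4% and 13.6%, so the difference was not particular to these sites. Among sites open at 4 hours and not at 2 hours, gained peaks were narrower, with a median of 549.5 bp against 654 bp for the kept ones. Where both early DHS lists held the site, 92.2% of 885 gained and 94.6% of 4101 kept peaks were open on day 1, and 65.99% of gained (62.8 to 69.1) and 77.4% of kept peaks (76.1 to 78.7) on day 2. On day 6 the shares were 40.5% of gained (37.2 to 43.8) and 37.5% of kept peaks (36.0 to 39.0), with overlapping intervals. Median widths of these peaks were 546 bp for gained and 730 bp for kept ones. On day 0, before induction, 50.8% of gained (47.5 to 54.2) and 42.9% of kept peaks (41.3 to 44.4) had been open. The DHS lists hold 9989 peaks on day 0, 35389 on day 1, 25097 on day 2 and 11936 on day 6. Differences in share between days therefore cannot be told apart from list length.

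**Figure D2:**
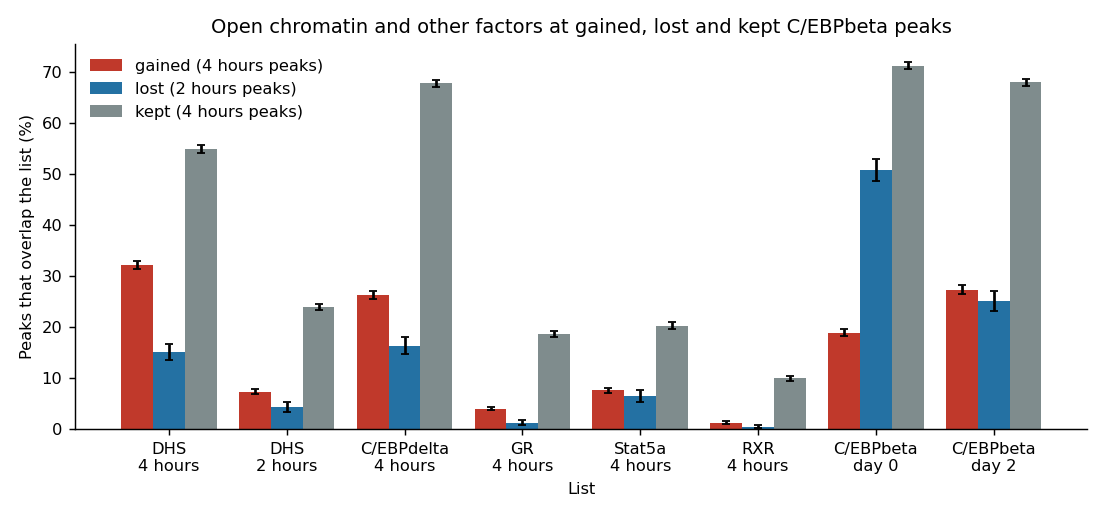
Share of C/EBPbeta peaks that overlap each list (vertical axis, %) for gained, lost and kept peaks, with exact 95% intervals over peaks of 1 library per time; the lists stand along the horizontal axis. Kept peaks are highest for each list shown, and lost peaks stand above gained peaks for C/EBPbeta of day 0 (50.8% and 18.95%).

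The other factors of 4 hours were taken next, starting with the relative C/EBPdelta. C/EBPdelta lay at 26.4% of gained peaks (25.6 to 27.2), 16.3% of lost peaks (14.7 to 18.01) and 67.8% of kept peaks (67.1 to 68.5). GR lay at 4.02% of gained (3.68 to 4.39), 1.18% of lost (0.746 to 1.76) and 18.6% of kept peaks (18.1 to 19.2). Stat5a lay at 7.64% of gained (7.18 to 8.12), 6.44% of lost (5.39 to 7.62) and 20.3% of kept peaks, and its intervals for gained and lost peaks overlapped. RXR lay at 1.32% of gained (1.13 to 1.54), 0.460% of lost (0.210 to 0.871) and 9.95% of kept peaks. With every peak set to 200 bp, lost peaks held GR (4.08%), Stat5a (8.65%) and RXR (2.75%) at or above the shares of gained peaks (4.04%, 6.79% and 1.26%). That setting also changed the classes, to 12658 gained and 2404 lost peaks. With the classes unchanged and only the middle 200 bp of each C/EBPbeta peak used, the order was as first given. GR then lay at 3.95% of gained and 1.12% of lost peaks, and RXR at 1.25% and 0.460%. Stat5a lay at 7.29% (6.84 to 7.76) and 6.29% (5.25 to 7.45), with overlapping intervals.

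C/EBPbeta sites with more of the other factors of 4 hours were more often in both lists. The series holds no list of these factors at 2 hours, so the shares lost do not describe joint binding at that time. The share of 4 hours peaks that were gained was 62.1% (61.3 to 62.9) of 13461 peaks with none of the 4 factors, 29.1% of 10959 with 1, 18.9% of 3051 with 2, 8.80% of 1546 with 3 and 2.23% (1.39 to 3.39) of 940 with all 4. The share of 2 hours peaks that were lost was 23.0% of 6663 peaks with none, 4.65% with 1, 1.67% with 2, 0.282% with 3 and 0 of 912 with all 4, a count that allows up to 0.404%. Thus 919 of the 940 peaks at 4 hours that held all 5 factors had a C/EBPbeta peak at 2 hours. Peaks with more factors were wider, with medians of 525, 605, 676, 758 and 830 bp from 0 to 4 factors. Among the widest 25% of 4 hours peaks the share gained was still 41.4% (38.4 to 44.4) of 1067 peaks with no other factor, 14.6% of 3044 with 1 and 6.01% (5.23 to 6.86) of 3378 with 2 or more. Among the narrowest 25% it was 72.7%, 52.6% and 45.6%.

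**Figure D3:**
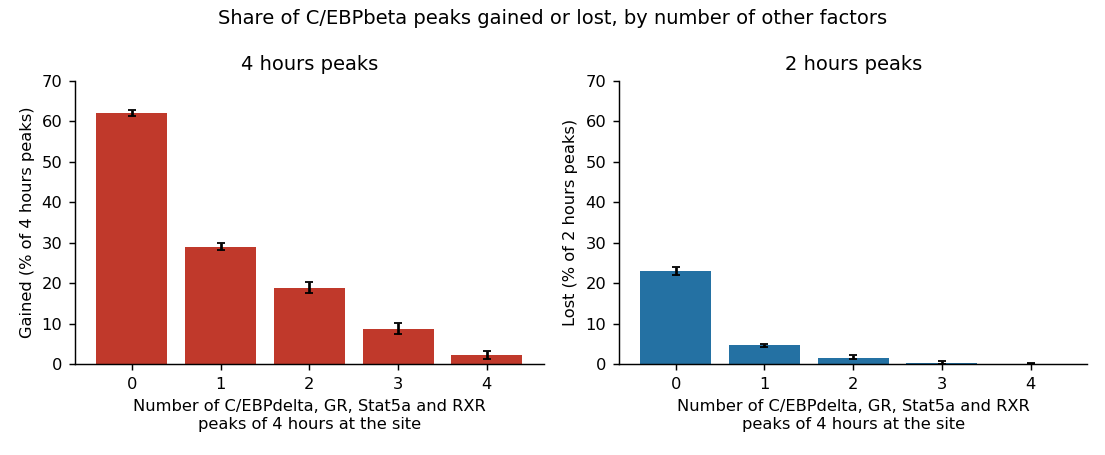
Share of C/EBPbeta peaks gained (left, % of 4 hours peaks) and lost (right, % of 2 hours peaks) by the number of C/EBPdelta, GR, Stat5a and RXR peaks of 4 hours at the site, from 0 to 4. Bars carry exact 95% intervals over peaks; the gained share is 62.1% at 0 factors and 2.23% at 4, and the lost share 23.0% and 0.

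Which combinations made up these numbers differed by class. Among sites with any other factor, C/EBPdelta without GR, Stat5a and RXR was the most frequent combination, at 2596 gained peaks (21.1%), 280 lost peaks (14.3%) and 7288 kept peaks (41.2%). Stat5a with none of the other 3 lay at 409 gained (3.33%), 88 lost (4.50%) and 322 kept peaks (1.82%), and GR with none of the other 3 at 167 gained (1.36%), 9 lost (0.460%) and 132 kept peaks (0.747%). All 4 factors together were at 21 gained (0.171%), 0 lost and 919 kept peaks (5.20%). The larger shares of Stat5a alone and GR alone in gained than in kept peaks go with how many peaks lack C/EBPdelta, 9040 gained and 5698 kept ones. Counted over the peaks without C/EBPdelta, Stat5a alone lay at 4.52% of gained (4.11 to 4.97) and 5.65% of kept peaks (5.07 to 6.28), and GR alone at 1.85% of gained (1.58 to 2.15) and 2.32% of kept peaks (1.94 to 2.74).

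From the side of the other factors, most of their peaks lay where C/EBPbeta was listed at both times. Of 4080 GR peaks, 11.6% met C/EBPbeta of 4 hours alone, 0.588% that of 2 hours alone, 80.02% both and 7.75% neither. Of 2076 RXR peaks, 7.996% met C/EBPbeta of 4 hours alone, 0.434% that of 2 hours alone and 84.9% both. Of 18327 C/EBPdelta peaks, 17.8% met C/EBPbeta of 4 hours alone, 1.74% that of 2 hours alone and 65.8% both. Stat5a stood apart from the other 3, with 33.4% of its 6977 peaks meeting C/EBPbeta at neither time, 13.5% at 4 hours alone and 51.3% at both. The share meeting it at neither time was 14.6% for C/EBPdelta and 6.70% for RXR.

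Because kept peaks were wider, gained and kept peaks of 4 hours were also compared within 4 steps of width that hold equal numbers of peaks. In the narrowest step (251 to 502 bp), the DHS 4 hours list held 24.5% of gained (23.4 to 25.8) and 26.3% of kept peaks (24.6 to 28.1), a difference within the intervals. In the widest step (677 to 2036 bp) it held 55.0% of gained (52.0 to 58.0) and 77.7% of kept peaks (76.7 to 78.7). For the DHS 2 hours list the shares were 6.23% of gained and 7.48% of kept peaks in the narrowest step, and 13.3% of gained and 42.0% of kept peaks in the widest. C/EBPdelta differed in each step, from 18.3% of gained (17.2 to 19.4) and 39.1% of kept peaks (37.2 to 41.0) in the narrowest to 50.8% and 87.5% in the widest. Earlier binding did not go with width among gained peaks: C/EBPbeta of day 0 was listed at 18.8%, 19.03%, 19.02% and 19.3% of them from the narrowest to the widest step, and at 64.5%, 68.4%, 70.5% and 76.1% of kept peaks. Lost and kept peaks of 2 hours stayed apart in the narrowest step of that list (251 to 484 bp). There the DHS 4 hours list held 14.0% of lost (12.0 to 16.3) and 37.0% of kept peaks (35.4 to 38.5), and C/EBPdelta lay at 13.8% and 46.7%.

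**Figure D4:**
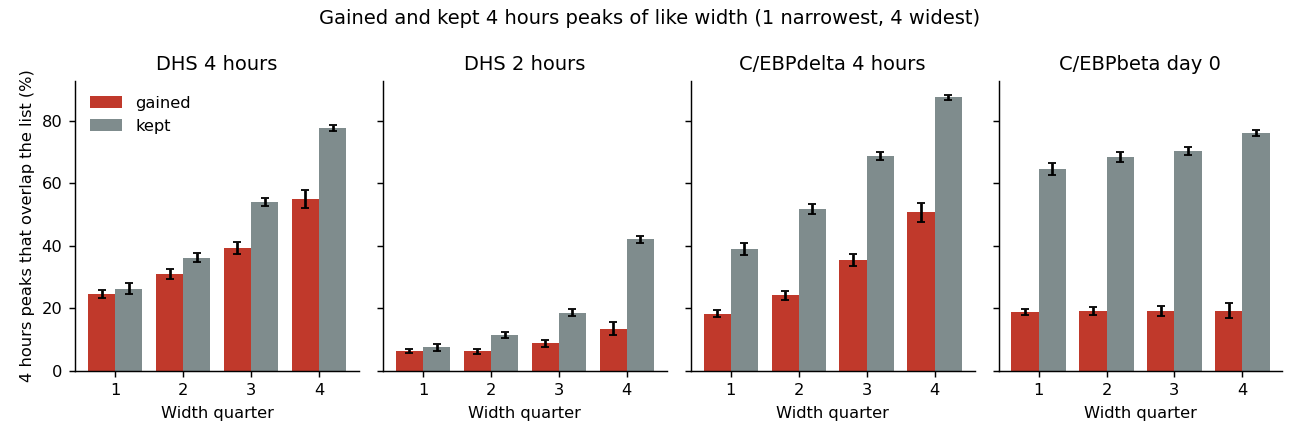
Share of 4 hours C/EBPbeta peaks that overlap the DHS 4 hours, DHS 2 hours, C/EBPdelta 4 hours and C/EBPbeta day 0 lists (vertical axis, %), for gained and kept peaks in 4 steps of peak width (horizontal axis, 1 narrowest and 4 widest), with exact 95% intervals over peaks. Gained and kept peaks are close for DHS in the narrowest step (24.5% and 26.3% at 4 hours) and apart in the widest (55.0% and 77.7%), while day 0 binding stays near 19% of gained peaks in each step.

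The sites were then followed to day 0 and day 2. C/EBPbeta of day 0 lay at 18.95% of gained (18.3 to 19.7), 50.8% of lost (48.6 to 53.0) and 71.2% of kept peaks (70.5 to 71.9). C/EBPbeta of day 2 lay at 27.4% of gained (26.6 to 28.2), 25.1% of lost (23.2 to 27.1) and 68.0% of kept peaks (67.3 to 68.7). Of gained peaks, 7323 (59.6%) were in neither of these lists, and of lost peaks 746 (38.1%) were in neither. Over the 41360 regions with C/EBPbeta at any of the 4 times, the most frequent pattern was all 4 times (9316), followed by 4 hours alone (7322), day 2 alone (5000) and day 0 alone (4086). Regions of 2 hours alone numbered 746, those of day 0 and 4 hours without 2 hours and day 2 1559, and those of 4 hours and day 2 alone 2616.

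Gained sites shared with day 0 and gained sites shared with day 2 held different chromatin and factors. The 1594 gained peaks also listed on day 0 and not on day 2 were in the DHS 4 hours list in 49.1% (46.6 to 51.6) and in that of 2 hours in 16.7% of cases. For the 2629 gained peaks also listed on day 2 and not on day 0, these shares were 17.3% (15.9 to 18.8) and 1.60%. C/EBPdelta ran the other way, at 22.3% (20.2 to 24.4) of peaks shared with day 0 alone, against 43.9% (41.9 to 45.8) of those shared with day 2 alone. Median widths of both sets were close, 516 bp and 539 bp, and in each of the 4 steps of width the DHS 4 hours share was higher in the day 0 set (40.8% and 8.94% in the narrowest, 68.1% and 42.7% in the widest). In the narrowest step, the gained peaks shared with day 0 alone were in the DHS 4 hours list more often (40.8%, 37.1 to 44.6, n = 686) than kept peaks of that history (32.5%, 29.2 to 36.0, n = 747), the reverse of the order over all peaks. The intervals overlapped in the second step (50.5% of gained and 45.5% of kept peaks) and in the third (57.7% and 60.4%), and in the widest step gained peaks were below kept peaks (68.1% and 78.97%).

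The same split set PPARgamma and RNA Pol II apart. PPARgamma of day 2 lay at 1.25% (0.768 to 1.93) of the gained peaks shared with day 0 alone and 9.93% (8.81 to 11.1) of those shared with day 2 alone, and PPARgamma of day 6 at 2.57% and 10.5%. RNA Pol II of 4 hours lay at 9.85% (8.43 to 11.4) of the first set and 2.81% (2.22 to 3.52) of the second. Kept and lost peaks showed the same order. Of kept peaks shared with day 0 alone (n = 3245), 53.9% were in the DHS 4 hours list and 0.801% held PPARgamma of day 2, against 40.8% and 9.63% of those shared with day 2 alone (n = 2679). Of lost peaks, 21.6% of 719 and 4.15% of 217 were in the DHS 4 hours list, and 0.556% and 7.37% held PPARgamma of day 2. The C/EBPbeta list that defined the sets and one of the PPARgamma lists are both of day 2.

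Among lost peaks, Stat5a was listed most often at those without C/EBPbeta on day 0 or day 2. It lay at 10.99% (8.84 to 13.5) of the 746 lost peaks in neither the day 0 nor the day 2 list, and at 3.06% (1.92 to 4.60) of the 719 lost peaks shared with day 0 alone. Lost peaks shared with both days held Stat5a at 4.00%. Those shared with day 2 alone held it at 5.07% (2.56 to 8.89), an interval that overlapped that of lost peaks in neither list. C/EBPdelta was at 9.92% of the lost peaks in neither list and 16.6% of those shared with day 0 alone. Among gained peaks, Stat5a was at 8.45% of those in neither list and 5.52% of those shared with day 0 alone. Kept peaks of 4 hours showed the same order, at 22.0% and 11.2%, but Stat5a was as frequent at kept peaks shared with both days (22.0%) or with day 2 alone (23.9%).

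**Figure D5:**
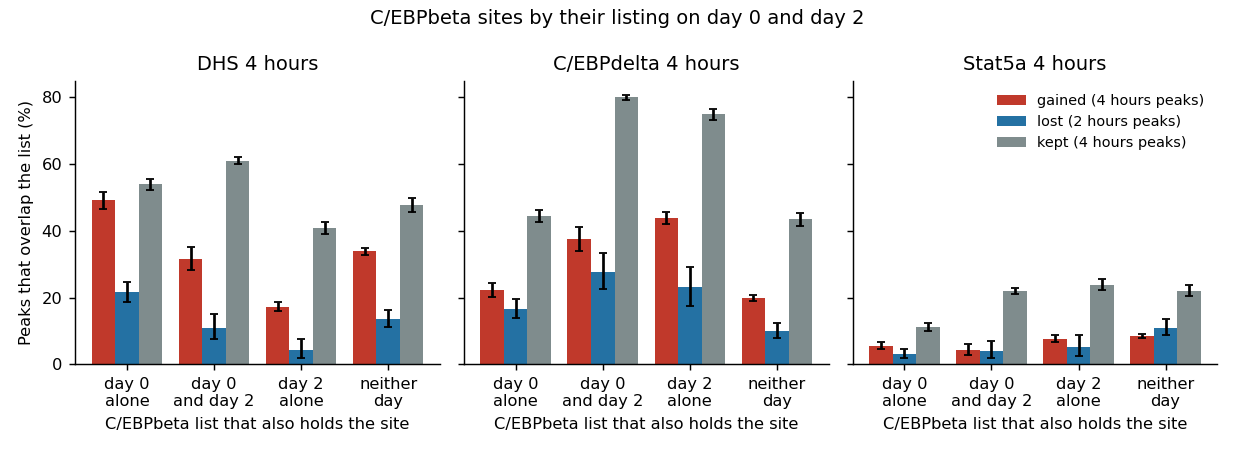
Share of C/EBPbeta peaks that overlap the DHS, C/EBPdelta and Stat5a lists of 4 hours (vertical axis, %), for gained, lost and kept peaks split by whether the site was also in the C/EBPbeta list of day 0, of both days, of day 2 or of neither day (horizontal axis), with exact 95% intervals over peaks. In each class the DHS share is lowest for sites shared with day 2 alone (17.3% of gained peaks), and Stat5a is highest among lost peaks for those on neither day (10.99%).

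The comparison was repeated with the 4 hours list cut to its 19703 widest peaks, as many as the 2 hours list held. The boundary fell at 530 bp, and 85 of the 105 peaks of that width were taken, by chromosome and start. Gained and lost sites then numbered 5758 (29.2%) and 5667 (28.8%), which equal list length makes nearly alike by construction. Of the 5667 lost peaks, 3710 (65.5%) overlapped a 4 hours peak that was too narrow for the shortened list. For the DHS 4 hours list the order of the classes was as before, with 39.5% of gained (38.3 to 40.8), 23.7% of lost (22.6 to 24.8) and 62.0% of kept peaks (61.2 to 62.8) in it. C/EBPdelta lay at 34.6% of gained (33.4 to 35.9), 33.2% of lost (31.97 to 34.4) and 74.6% of kept peaks, so that gained and lost peaks no longer differed beyond their intervals. GR lay at 6.03% of gained (5.43 to 6.67), 2.66% of lost (2.26 to 3.12) and 22.7% of kept peaks. For 3 lists of other times, lost sites were above gained sites beyond the intervals with the shortened list and not with the whole list. C/EBPbeta of day 2 lay at 31.4% of gained (30.2 to 32.6) and 42.4% of lost peaks (41.1 to 43.7), where the whole list gave 27.4% and 25.1%. The DHS list of day 0 held 5.19% of gained (4.63 to 5.80) and 6.97% of lost peaks (6.32 to 7.66), where the whole list gave 5.64% and 5.31%, and that of day 6 held 5.64% of gained (5.06 to 6.27) and 7.55% of lost peaks (6.88 to 8.27), where the whole list gave 5.58% and 5.47%. Fewer sites were gained with the shortened list. Because equal length makes the counts of gained and lost sites nearly alike, the cut cannot tell their excess apart from list length. With the whole list, the gained and lost intervals overlapped for C/EBPbeta of day 2 and DHS of day 0 and day 6, so no clear order was reversed. Kept sites were above both other classes for these 3 lists at either length. The order of gained and lost sites did not change for C/EBPbeta of day 0 or for DHS of day 1 and day 2. With the shortened list, DHS of day 1 held 35.1% of gained and 27.8% of lost peaks, and that of day 2 held 23.8% and 20.9%.

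Single sites are named by width, the only value a peak carries, with mm9 positions counted from 1. The widest gained peaks lay on chromosome 11 at 18612263 to 18613946 (1684 bp), chromosome 19 at 12538052 to 12539614 (1563 bp) and chromosome 6 at 145393544 to 145395001 (1458 bp). All 3 were listed with C/EBPbeta on day 0 and day 2 and with C/EBPdelta and open chromatin at 4 hours. Of the 4 C/EBPbeta lists, only that of 2 hours lacked them. Listing on both day 0 and day 2 was uncommon among gained peaks, at 733 of 12279 (5.97%). The chromosome 6 peak was also in each of the 6 DHS lists and held GR and RXR, and a 2 hours peak lay 2657 bp from it. The widest kept peaks lay on chromosome 6 at 114730503 to 114732538 (2036 bp), chromosome 1 at 90370687 to 90372681 and chromosome 19 at 17023188 to 17025182 (both 1995 bp), each with C/EBPdelta, GR and both early DHS lists.

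The widest lost peaks were narrower, on chromosome 7 at 48754130 to 48755084 (955 bp), chromosome 13 at 53539096 to 53539928 (833 bp) and chromosome 1 at 78860479 to 78861306 (828 bp). The chromosome 7 peak was open at 4 hours, day 1, day 2 and day 6 and held RNA Pol II on day 0 and at 4 hours. The chromosome 1 peak was in the C/EBPbeta 2 hours list and in no other of the 19. Next to it and the chromosome 13 peak, the widest lost peak found on neither day 0 nor day 2 lay on chromosome 16 at 29711998 to 29712811 (814 bp). Among the 6 lost peaks in DHS of 2 hours and not of 4 hours, the widest lay on chromosome 2 at 181027003 to 181027545 (543 bp) and 109993150 to 109993672 (523 bp) and on chromosome 17 at 29479045 to 29479506 (462 bp).

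All 4 other factors lay at 21 of 12279 gained peaks (0.171%) and at 919 kept peaks. Of these 21 gained peaks, 9 were open at 4 hours and not at 2 hours. The widest lay on chromosome 1 at 190067180 to 190068236 (1057 bp), chromosome 16 at 52101081 to 52101964 (884 bp) and chromosome 16 at 25306393 to 25307109 (717 bp). C/EBPbeta was listed at the first of these again on day 2, and at none of the 3 on day 0. The third was still in the DHS lists of day 1 and day 2, and the other two were in no DHS list but that of 4 hours.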

How the data were processed

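The authors deposited 1 list of peak positions per sample (chromosome, start and end in bp, read as BED with starts counted from 0), with no score, height or count. Per the submitters' processing notes, positions refer to mm9, a mouse genome build; the aligner, peak caller, threshold and read depth are not given in the sources used here. The input control was not analysed. The members and the lists set beside them were chosen with earlier results of these data known.

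Peaks were compared by overlap of at least 1 bp, one peak at a time without merging unless regions are named. Shares carry exact 95% intervals, with no test, since each group held 1 library. Alternatives were C/EBPbeta or DHS lists made equally long by width, the wider 50% of each list, all peaks resized to 200 bp, a permitted gap of 500 bp, and a required overlap of 50% of the shorter peak. Shares in the middle 200 bp of C/EBPbeta peaks, and the splits by day 0 and day 2 within width steps, were added after the data were examined. Sites named are the 3 widest peaks of each class and of 3 subsets. Overlap code was tested on simulated lists. No mm9 genome sequence or annotation was used here, so no gene or motif is given. Intervals came from SciPy 1.17.1, overlaps from NumPy 2.4.6 and plots from Matplotlib 3.10.9, under Python 3.11.15.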

Additional observations from a re-analysis of the deposited data

How the results depend on the processing

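The share of gained peaks was below that of kept peaks in 43 of 43 recomputed pairs (DHS of 4 and 2 hours, any other factor, and each of 4 factors), and the share of lost peaks was below that of gained peaks in 39; the exceptions came with peaks set to 200 bp and are given above. An overlap of 50% of the shorter peak gave 30.7% of gained and 53.8% of kept peaks in DHS of 4 hours, and 6.86% of gained peaks in DHS of 2 hours. A gap of up to 500 bp gave 34.7% and 57.9% for DHS of 4 hours, 8.31% and 26.1% for DHS of 2 hours, and 33.2% and 72.4% for any other factor (31.9% and 71.1% as reported). Peaks set to 200 bp gave 27.3% and 47.9%, 6.45% and 21.2%, and 30.7% and 69.4% for the same 3. The shortened 4 hours list left 5758 gained and 5667 lost sites, with 39.5% and 62.0%, 8.61% and 28.1%, and 41.1% and 78.0%. The wider 50% of each list left 6914 gained and 8064 kept sites, with 25.3% and 48.8% for DHS of 4 hours, 6.32% of gained peaks for DHS of 2 hours and 68.6% of kept peaks for any other factor. These 2 settings hold fewer peaks by construction. The shortened DHS 4 hours list gave 8.67% and 19.5%, and the middle 200 bp of C/EBPbeta peaks 31.2% and 54.0% in DHS of 4 hours. No paired analysis was possible because each group held 1 library. With unknown depth, a peak missing from a list does not show that a site was unbound.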

Other observations

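Gained and lost sites were spread over the chromosomes in near proportion to the lists. Among the chromosomes 1 to 19, the share of 4 hours peaks that were gained ran from 39.0% on chromosome 17 to 43.1% on chromosome 14, against 41.0% of all. Chromosome X stood above this range with 47.0% gained (42.9 to 51.1, n = 583), and 12.1% of its 355 peaks at 2 hours were lost (8.91 to 16.0). The interval for X overlapped those of several other chromosomes, such as chromosome 14 (40.2 to 46.0).

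A few kept peaks joined several peaks of the other time. Of the kept sites, 106 peaks of 4 hours covered 2 or more peaks of 2 hours, and 40 peaks of 2 hours covered 2 or more of 4 hours.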
